A study of Mus musculus with 24 samples.

Results

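The libraries described here are those of mouse hippocampus labelled Tob-KO and taken 3 h after fear conditioning, set against Tob-KO hippocampus from naive mice. Both groups were chosen by their sample labels, 3 libraries each, so 6 of the 24 RNA-seq libraries of the series hold the main comparison. The animals were male C57BL/6J mice labelled as knockouts of Tob, the gene for a Tob/Btg family protein, and each library is 1 labelled replicate of a whole-hippocampus RNA preparation. Naive mice had no conditioning, and the conditioned mice were placed in a chamber with a tone and foot shocks and culled at 15 min, 1 h or 3 h. The labels give no age, and the extent of the deleted sequence is not stated in the labels. The Tob-KO libraries at 1 h, 3 in number, served as a second reference that uses none of the naive libraries, and 3 naive and 3 conditioned wild-type (WT) libraries at 3 h served to test whether the late response differed between genotypes. Nothing in the labels says whether libraries were prepared together, so p-values measure only the spread between these samples.

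Neuronal activity switches on immediate early genes within minutes. Many of them encode transcription factors such as FOS, JUNB and EGR family proteins, which act on later effector genes, while others such as Arc act directly at synapses. ERK kinases carry part of the signal from the synapse to the nucleus through factors such as SRF and CREB, and SPRY and DUSP proteins feed back on ERK. The TOB protein binds the CCR4-NOT deadenylase complex, which shortens the poly(A) tails of mRNAs, and it also takes part in growth factor and BMP signalling.

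The targeted gene, Tob1 (ENSMUSG00000037573.5, chr11:94211454-94215495 on the plus strand of GRCm38), was counted in every library labelled Tob-KO. Its level was 52.1, 55.3 and 52.7 CPM (counts scaled to library size, with edgeR's trimmed mean of M-values between libraries) in the naive libraries of that label. The 3 h libraries held 53.1, 55.9 and 54.0 CPM. WT libraries held less, with 33.9 to 43.0 CPM when naive and 37.8 to 40.7 CPM at 3 h. The Tob1 level thus ran against the genotype label, and since counts were summed over the whole gene they do not show whether the deleted part was read. The genotype is therefore that of the label throughout. Between 3 h and naive the log2 difference of Tob1 was 0.03 ± 0.07 (SE) in the libraries labelled Tob-KO, with an adjusted p of 0.912.

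Total counts of the 6 libraries lay between 30384485 and 34994521. Choroid plexus markers stood apart from the labels. Summed over 15 markers they reached 88.8, 5165 and 2489 CPM in the 3 naive libraries and 2223, 71.6 and 66.2 CPM in the 3 libraries at 3 h. A group of 6 loci linked to ribosomal RNA took 0.0979% to 0.123% of counts in the naive libraries and 0.168% to 0.280% at 3 h, with no overlap. Their part in the results below was not tested, except where a value with the choroid plexus score as covariate is given.

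Promoter sequence is shown for 3 genes that were lower at 3 h than at 1 h, picked from the regulators named above. Junb and Dusp6, among the same regulators and also lower, are not shown. Each run holds the 250 bases before the RefSeq transcription start (GRCm38.p6), 5′ to 3′ on the gene's strand, with CArG boxes (the motif bound by SRF) and the cyclic AMP response half-site TGACG in capitals, read on both strands. FOS is one partner of the AP-1 factor, EGR2 is a zinc finger factor of activity-induced transcription, and SRF is the factor that binds CArG boxes. The intervals are chr12:85473640-85473889 on the plus strand for Fos, chr10:67537619-67537868 on the plus strand for Egr2 and chr17:46556163-46556412 on the minus strand for Srf.
Fos: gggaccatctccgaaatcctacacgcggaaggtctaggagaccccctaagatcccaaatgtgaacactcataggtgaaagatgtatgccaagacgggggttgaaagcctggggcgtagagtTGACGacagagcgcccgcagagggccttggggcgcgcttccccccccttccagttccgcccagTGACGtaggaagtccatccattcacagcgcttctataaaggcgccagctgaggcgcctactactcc
Egr2: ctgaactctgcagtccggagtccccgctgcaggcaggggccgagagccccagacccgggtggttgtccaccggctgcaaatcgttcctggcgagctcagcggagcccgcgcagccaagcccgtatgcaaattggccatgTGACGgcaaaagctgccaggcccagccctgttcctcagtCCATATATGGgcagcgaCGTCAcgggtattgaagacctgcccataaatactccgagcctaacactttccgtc
Srf: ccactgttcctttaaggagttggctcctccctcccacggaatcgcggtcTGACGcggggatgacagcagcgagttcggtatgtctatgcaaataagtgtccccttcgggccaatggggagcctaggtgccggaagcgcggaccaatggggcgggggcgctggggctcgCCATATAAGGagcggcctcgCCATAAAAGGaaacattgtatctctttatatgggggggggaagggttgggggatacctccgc
In these windows Fos had half-sites that began 129 and 66 bases before the start, Egr2 had a CArG box that began 72 bases before it beside half-sites at 111 and 55 bases, and Srf had CArG boxes at 82 and 62 bases and a half-site at 201 bases. Of the 35 genes lower at 3 h than at 1 h, 24 had a promoter in the set searched. A chromosome was left out of this set by rule, and Spry4, Ammecr1l and Zfp516 lie on it. Those genes were therefore not searched, and their absence is not a failed match. Among those 24 promoters, 11 (45.8%) held TGACG, against 17.8% of all 32851 promoters. The 24 were 1 promoter per tested gene, the one nearest an annotated principal start. The 32851 held several starts for some genes, with no filter on expression and no chromosome left out, so the sets compared are not alike. The full palindrome TGACGTCA, which contains the half-site, was in 2 of 24 (8.33%) against 1.55% of all promoters, and a CArG box was in 2 of 24 (8.33%) against 1.47%. The 2 promoters with a CArG box were those of Egr2 and Srf, both shown here, and those of Junb and Dusp6 had none. A match is a string in the sequence and not evidence of a bound factor.

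Against naive, no gene passed the threshold at 3 h in the libraries labelled Tob-KO. By edgeR's quasi-likelihood test over 19500 genes with Benjamini-Hochberg adjustment, 0 genes (0%) reached an adjusted p of 0.05, and the smallest adjusted p was 0.108. At an unadjusted p under 0.05 there were 2071 genes (10.6%), of which 1096 (5.62%) had higher and 975 (5%) lower values at 3 h. Regardless of p, all 3 libraries at 3 h lay above all naive libraries for 1466 genes (7.52%) and below them for 1440 (7.38%). The median size of the log2 difference was 0.11. The edgeR exact test on the 6 libraries called 3 genes and DESeq2 on all 24 libraries called 27, so the count of 0 depends on the tool. In WT, 0 genes were called at 3 h against naive by the same quasi-likelihood test, and 779 (3.99%) had an unadjusted p under 0.05.

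Against the 1 h libraries, 42 genes (0.215%) passed the threshold, 35 lower (0.179%) and 7 higher (0.0359%) at 3 h. All 35 lower genes had their 3 libraries at 3 h below the 3 at 1 h, with a median log2 difference of -0.53. The same 35 genes stood at a median log2 difference of -0.12 to the naive libraries, where 21 overlapped, 14 lay below and 0 above, beside 7.38% below and 7.52% above over all genes. Of the 35, 6 differed at least 2-fold from 1 h. The 3 h libraries are shared by both comparisons, so the values are set side by side and not as independent results.

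Of the 6 genes that differed at least 2-fold, 4 belonged to the immediate early list, namely the transcription factor genes Fos, Egr2 and Junb and the synaptic gene Arc, and the others were Gm37019 and Lum. Fos was at 29.1, 30.7 and 27.2 CPM at 1 h and at 8.48, 7.12 and 5.91 CPM at 3 h, beside 6.61, 4.08 and 8.86 CPM in naive libraries. All 3 h libraries were below all those at 1 h and overlapped the naive ones. Fos fell by 2.02 ± 0.30 (SE) on the log2 scale from 1 h to 3 h (adjusted p = 0.00497). Egr2 was at 5.44, 4.63 and 5.78 CPM at 1 h and 1.13, 0.683 and 1.31 CPM at 3 h, with naive libraries at 0.589, 0.628 and 1.15 CPM. It fell by 2.33 ± 0.41 (adjusted p = 0.0152). Junb, which pairs with FOS in AP-1, was at 93.1, 79.0 and 66.1 CPM at 1 h and 38.2, 40.9 and 37.4 CPM at 3 h, within the naive range of 38.1 to 41.6 CPM but for the lowest library. It fell by 1.03 ± 0.17 (adjusted p = 0.00962). Srf had a smaller range, from 76.0 to 79.9 CPM at 1 h to 63.6 to 65.7 CPM at 3 h, and fell by 0.27 ± 0.05 (adjusted p = 0.0302).

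Arc, which encodes a synaptic and capsid-forming protein that drives AMPA receptor endocytosis, ended below the naive libraries. It was at 192, 243 and 194 CPM at 1 h. At 3 h it was at 54.7, 70.5 and 61.6 CPM, and all 3 values lay below the naive 91.4, 80.3 and 81.8 CPM. From 1 h to 3 h Arc fell by 1.75 ± 0.27 on the log2 scale (adjusted p = 0.0067). Against naive the difference was -0.44 ± 0.27, with a 95% interval from -0.997 to 0.12, and did not pass the test (adjusted p = 0.549).

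**Figure D1:**
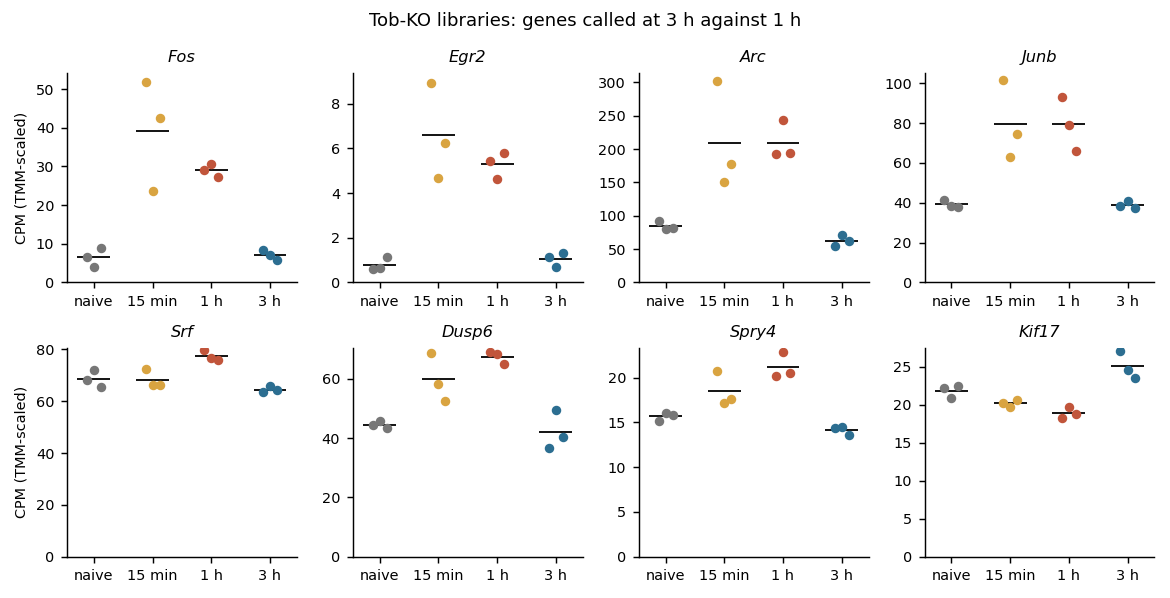
Levels of 8 genes called between 3 h and 1 h in the 12 libraries labelled Tob-KO, in TMM-scaled CPM on axes that start at 0, by time after conditioning. Points are libraries and lines are group means of 3 libraries; Fos, Egr2, Arc and Junb at 3 h lie below every 1 h library, and Kif17 lies above every 1 h library.

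Over the 29 immediate early genes listed, 5 were called lower at 3 h than at 1 h (Fos, Egr2, Arc, Junb and Srf) and 0 higher. Of all genes 0.179% were called lower and 0.0359% higher. The list median against 1 h, over called and uncalled genes, was -0.60. Against naive, the median was 0.06, with 16 differences above zero and 13 below. Only Klf6, a zinc finger factor, had an unadjusted p under 0.05 there. Klf6 was at 55.2, 44.4 and 44.0 CPM at 3 h and 31.8, 31.0 and 45.2 CPM in naive libraries, a log2 difference of 0.41 ± 0.15 (adjusted p = 0.413) with overlapping groups.

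Feedback inhibitors of ERK, Spry4 and Dusp6, fell from 1 h to 3 h as well. Spry4, which restrains receptor tyrosine kinase signalling, went from 20.2, 22.9 and 20.5 CPM to 14.4, 14.5 and 13.6 CPM. It fell by 0.58 ± 0.08 on the log2 scale (adjusted p = 0.00429), the smallest adjusted p of this comparison together with Spty2d1, which encodes a histone chaperone. All 3 libraries at 3 h also lay below the naive 15.2, 16.1 and 15.8 CPM of Spry4, but the difference of -0.15 ± 0.08 did not pass the test (adjusted p = 0.509). Dusp6, a phosphatase that inactivates ERK, went from 68.9, 68.5 and 64.8 CPM to 36.6, 49.6 and 40.3 CPM. It fell by 0.68 ± 0.13 (adjusted p = 0.0253). These were 2 of the 19 tested genes of the ERK list, beside 0.179% of all genes called lower. Mapk3, the gene for the kinase ERK1, did not pass and differed by -0.06 ± 0.07 from 1 h (adjusted p = 0.767).

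Further examples among the lower genes had varied roles. Dnajb1, an HSP40 co-chaperone, went from 66.1, 86.2 and 63.4 CPM at 1 h to 50.1, 50.4 and 45.5 CPM at 3 h and fell by 0.56 ± 0.10 (adjusted p = 0.0217). Ppp1r15b, which directs a phosphatase to eIF2α, fell by 0.28 (adjusted p = 0.00962). Mcl1, an anti-apoptotic BCL2 family gene, went from 87.3, 89.5 and 83.8 CPM to 64.7, 69.5 and 70.3 CPM and fell by 0.35 ± 0.07 (adjusted p = 0.047). Errfi1, an inhibitor of the EGF receptor, fell by 0.53 ± 0.11 (adjusted p = 0.0383), and Ccnd2, a cyclin of the G1 phase, fell by 0.46 ± 0.09 (adjusted p = 0.029). Tiparp, an ADP-ribosyltransferase induced through the aryl hydrocarbon receptor, fell by 0.67 ± 0.12 (adjusted p = 0.0247). The choice of these genes was made after their values were seen.

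The 7 higher genes were each below 2-fold. Kif17, a kinesin that carries NMDA receptor subunits in dendrites, was at 18.3, 19.7 and 18.7 CPM at 1 h and at 27.1, 24.5 and 23.5 CPM at 3 h. It rose by 0.41 ± 0.07 on the log2 scale (adjusted p = 0.00879). It alone of the 7 also lay above all naive libraries, whose values were 22.2, 20.9 and 22.5 CPM. Hip1, an endocytic clathrin adaptor, rose by 0.33 ± 0.05 (adjusted p = 0.00866), and Mertk, a receptor kinase for the engulfment of debris, rose by 0.44 ± 0.09 (adjusted p = 0.0339). The others were Bbs12, Gm27032, Sppl2b and Tab1.

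Leaving out any 1 of the 6 libraries at 1 h and 3 h lowered the count, to between 5 and 19 calls. In all 6 of these fits Fos, Irf9, Spry4, Spty2d1 and Zfp52 were called, and Arc in 5. Hip1 and Kif17 were called in 4, and Dnajb1, Junb, Gm37019 and Ppp1r15b in 2. Egr2, Dusp6, Errfi1, Tiparp and Mertk were called in 1, and 14 of the 42 genes, among them Srf, Mcl1, Ccnd2 and Lum, in 0. Without replicate 1 at 3 h, the library of that group with 2223 CPM of choroid plexus markers, 5 genes were called. All 3 libraries at 1 h were high in those markers, with 2313, 2411 and 3356 CPM. With the choroid plexus score as covariate 53 genes were called, of which 32 were among the 42.

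Irf9 had the smallest p against naive and was called against 1 h. It encodes the DNA-binding subunit of the interferon-stimulated factor ISGF3. Its level was 9.66, 11.02 and 10.1 CPM in naive libraries, 10.1, 11.5 and 11.1 CPM at 1 h and 6.99, 7.64 and 6.82 CPM at 3 h. The 3 h libraries were below all the others. Irf9 fell by 0.60 ± 0.09 from 1 h (adjusted p = 0.00497), and the difference to naive was -0.52 ± 0.09, with an adjusted p of 0.108. In WT the difference between 3 h and naive was -0.11 ± 0.09 (unadjusted p = 0.229), and the difference between genotypes was -0.41 ± 0.13, with an adjusted p of 0.894. C4b, a complement gene, was at 46.3, 54.9 and 42.6 CPM in naive libraries and at 35.0, 34.6 and 32.5 CPM at 3 h, a difference of -0.49 ± 0.11 (adjusted p = 0.327). At 1 h it was already at 35.5, 34.0 and 34.3 CPM. Rab11a, a GTPase of recycling endosomes, was at 76.6, 76.3 and 76.1 CPM in naive libraries and at 86.0, 87.9 and 87.4 CPM at 3 h. Its difference of 0.19 ± 0.03 had an adjusted p of 0.108. DESeq2 over the 24 libraries called all 3 against naive, with adjusted p-values of 0.0022 for Irf9, 0.0269 for C4b and 0.0022 for Rab11a. These 3 genes were picked after their values were seen.

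Late effectors of neuronal activity leaned to higher values at 3 h against naive. Of 27 tested genes, 0 passed the threshold, 23 had differences above zero, and 6 were higher at an unadjusted p under 0.05 with 0 lower, where 5.62% of all genes were higher at that level. The median difference was 0.12. Penk, the gene for proenkephalin, was at 22.2, 18.5 and 18.8 CPM in naive libraries and at 24.5, 26.5 and 35.4 CPM at 3 h. The groups did not overlap, and replicate 3 at 3 h was the highest. The difference was 0.54 ± 0.16 (adjusted p = 0.403). Among the 6 libraries, that replicate also had the highest mean log2 level of striatal, septal and thalamic markers, relative to the 24 libraries. That level was 0.37, against 0.01 to 0.09 in naive libraries and 0.05 and -0.09 in replicates 1 and 2 at 3 h. Its part in the Penk difference was not tested. Rgs4, a regulator that speeds G protein inactivation, was at 143, 115 and 158 CPM in naive libraries and 227, 175 and 170 CPM at 3 h, a difference of 0.46 ± 0.15 (adjusted p = 0.403). Rgs2, of the same family, was at 40.3, 36.5 and 32.7 CPM and at 43.0, 42.5 and 47.0 CPM, a difference of 0.28 ± 0.10 (adjusted p = 0.413). Lingo1, Camk4 and Kcnf1 made up the 6. None of the 6 was called against 1 h.

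Sterol synthesis genes behaved alike in sign. Of 17 tested genes, 16 had higher values at 3 h than naive, 7 had an unadjusted p under 0.05, 8 had all 3 libraries above all naive libraries, and the median difference was 0.16. The shares over all genes were 5.62% and 7.52%. No gene passed the threshold. Hmgcs1, the cytosolic HMG-CoA synthase, was at 223, 221 and 228 CPM in naive libraries and at 266, 257 and 261 CPM at 3 h. The groups did not overlap, and the difference was 0.22 ± 0.07 (adjusted p = 0.406). Stard4, a sterol carrier, was at 21.9, 21.7 and 25.5 CPM and at 28.4, 27.0 and 27.8 CPM, a difference of 0.27 ± 0.10 (adjusted p = 0.42). At 1 h, where the naive libraries were the same, the difference of Hmgcs1 was 0.37 (adjusted p = 0.0235) and that of Stard4 0.44 (adjusted p = 0.0393), so both were called at 1 h and not at 3 h. From 1 h to 3 h neither passed the test, at -0.15 and -0.17. The difference between genotypes in the late effect, with a list median of 0.12, had 1 gene (Stard4) at an unadjusted p under 0.05 and 0 called. Summed over the list, naive libraries held 1079 to 1143 CPM with the Tob-KO label and 1099 to 1219 CPM in WT. The 3 h libraries held 1179 to 1280 CPM with the Tob-KO label and 1185 to 1230 CPM in WT.

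Cold-inducible and splicing-factor genes leaned the other way. Of 15 tested genes, 12 had lower values at 3 h than naive and 8 had no overlap with lower values, while 4 were lower and 1 higher at an unadjusted p under 0.05. Over all genes 7.38% had no overlap with lower values and 5% were lower at that p. The list median was -0.13 and 0 genes passed the threshold. Clk1, a kinase that phosphorylates splicing factors, was at 95.9, 110 and 109 CPM in naive libraries and at 59.0, 73.2 and 82.3 CPM at 3 h, a difference of -0.55 ± 0.19 (adjusted p = 0.413). Tra2a, a splicing activator, was at 80.8, 78.9 and 86.5 CPM and at 61.1, 75.0 and 65.6 CPM, a difference of -0.29 ± 0.10 (adjusted p = 0.413). Clk4 and Srsf1 were the others lower at that p, and the cold-inducible genes Cirbp and Rbm3 were not among these 4. Against 1 h the list median was 0.01.

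**Figure D2:**
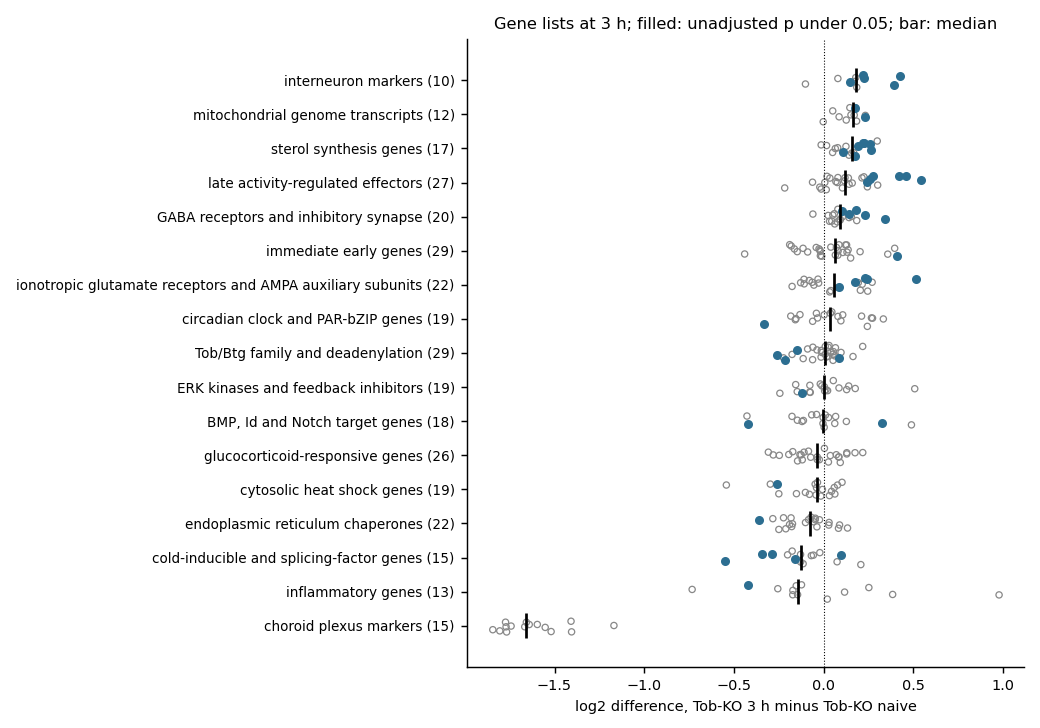
Log2 difference of each tested gene between 3 h and naive libraries labelled Tob-KO, by gene list, with the number of genes in parentheses. Filled points have an unadjusted p under 0.05, open points do not, and bars are list medians, which run from -1.66 for choroid plexus markers to 0.18 for interneuron markers; no point passed the adjusted threshold.

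Synaptic receptor genes were described by 2 lists. Of 20 GABA receptor and inhibitory synapse genes, 19 were above naive in the mean, 5 at an unadjusted p under 0.05 (Gabra3, Gabra4 and Gabbr2 among them) and 0 by the adjusted p, with a median of 0.09. Of all genes 5.62% were higher at that unadjusted p. Summed over this list, naive libraries held 4597, 4160 and 4334 CPM and the 3 h libraries 4602, 4608 and 4817 CPM. The mean log2 level of the list, relative to the 24 libraries, was 0.04 in naive replicate 1. That was above the 0.02 of replicates 1 and 2 at 3 h. Of 22 ionotropic glutamate receptor and AMPA receptor auxiliary genes, 13 were above naive and 9 below, 5 were higher at an unadjusted p under 0.05 and 0 lower, and the median was 0.06. Their summed level overlapped between the groups, at 6334 to 6920 CPM in naive libraries and 6122 to 6993 CPM at 3 h. Cnih3, an auxiliary subunit that slows AMPA receptor kinetics, was at 78.8, 73.8 and 84.0 CPM in naive libraries and at 96.2, 96.4 and 84.5 CPM at 3 h. Its difference was 0.23 ± 0.08 (adjusted p = 0.413). These groups did not overlap, and replicate 3 at 3 h lay next to the highest naive library.

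Interneuron markers stood higher as well, without passing the test. Of 10, 9 had higher values at 3 h than naive and 5 had an unadjusted p under 0.05, namely Npy, Sst, Lhx6, Cck and Vip, where 5.62% of all genes were higher at that level. Npy, the gene for neuropeptide Y, was at 24.2, 20.8 and 20.1 CPM in naive libraries and at 32.3, 26.2 and 26.8 CPM at 3 h. Its difference was 0.39 ± 0.12 (adjusted p = 0.403). Summed over the 10 markers, the naive libraries held 997 to 1109 CPM and the 3 h libraries 1108 to 1255 CPM. In bulk tissue, more cells of a type and more RNA per cell cannot be told apart. Drd1, the D1 dopamine receptor, was at 4.12, 4.08 and 6.57 CPM in naive libraries and at 8.15, 7.02 and 9.96 CPM at 3 h, a difference of 0.76 ± 0.25 (adjusted p = 0.403). Drd1 is also a marker of striatum, and the summed markers of striatum, septum and thalamus were at 303 to 352 CPM in naive libraries and 277 to 355 CPM at 3 h, which overlap. The highest of these sums was that of replicate 3 at 3 h, the library also highest for Drd1, which is itself 1 of these markers.

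Id2, an inhibitor of bHLH factors and a BMP target, was at 46.3, 42.9 and 48.6 CPM in naive libraries and at 66.8, 52.5 and 53.5 CPM at 3 h. The groups did not overlap, and the difference was 0.33 ± 0.10 (adjusted p = 0.403). It was the only member of 18 BMP, Id and Notch target genes above naive at an unadjusted p under 0.05. Hey2 was below naive at that p, and the list median was -0.004. Over all genes 5.62% were higher and 5% lower at that p, so this list stood near those shares. In the list of 29 Tob/Btg family and deadenylation genes the median was 0.01, with 1 gene higher (Cnot7) and 3 lower (Tob2, Cnot3 and Cpeb1) at an unadjusted p under 0.05. Over all genes 10.6% were at that level in either direction, so the list stood near the background. Tob2, the paralogue of Tob1, was at 34.7, 39.3 and 34.8 CPM in naive libraries and at 28.7, 27.3 and 34.8 CPM at 3 h, with a difference of -0.26 ± 0.12 (adjusted p = 0.468).

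The late response was compared between genotypes by the difference of the 3 h effects. No gene was called (0%), the smallest adjusted p was 0.894, and 514 genes (2.64%) had a higher and 410 (2.1%) a lower late effect with the Tob-KO label before adjustment (p under 0.05). Endoplasmic reticulum chaperones were the list with the most genes at that level, 12 of 22, with differences below zero in all 12, against 2.1% of all genes in that direction. The list median was -0.08 between 3 h and naive in Tob-KO and 0.20 in WT, and the median difference between genotypes was -0.29. Hspa5, the luminal HSP70 also called BiP, was at 268, 375 and 375 CPM in naive and 269, 336 and 231 CPM in 3 h Tob-KO libraries. In WT it was at 334, 266 and 304 CPM in naive libraries and 463, 397 and 374 CPM at 3 h. The difference between genotypes was -0.73 ± 0.24 (unadjusted p = 0.00535, adjusted p = 0.894), with late effects of -0.28 ± 0.17 in Tob-KO and 0.45 ± 0.17 in WT. Pdia4, a disulphide isomerase, gave -0.72 ± 0.21 and Creld2, another chaperone, -0.66 ± 0.18.

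Chaperone sums are set beside the choroid plexus markers, library by library. Over the 22 genes the naive libraries labelled Tob-KO held 2608 CPM in replicate 1, which held 88.8 CPM of those markers, and 3033 and 3093 CPM in replicates 2 and 3, which held 5165 and 2489 CPM. At 3 h the chaperones summed to 2666, 2913 and 2425 CPM where those markers were at 2223, 71.6 and 66.2 CPM. The order of the chaperone sums was not that of the markers in either Tob-KO group. The replicate lowest in one was also lowest in the other, both when naive and at 3 h. In WT the chaperones summed to 2913, 2571 and 2767 CPM in naive libraries, where the markers were at 2593, 742 and 53.2 CPM. At 3 h the WT chaperone sums were 3306, 3155 and 3068 CPM, beside 2287, 3048 and 49.8 CPM of markers. For the choroid plexus markers the median difference between genotypes was -2.25, with 0 at an unadjusted p under 0.05. The part of these markers in the chaperone difference between genotypes was not tested by gene. Cytosolic heat shock genes had 6 of 19 genes at an unadjusted p under 0.05 in the same test, all 6 below zero, where 2.1% of all genes were lower at that level, and a median of -0.15.

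**Figure D3:**
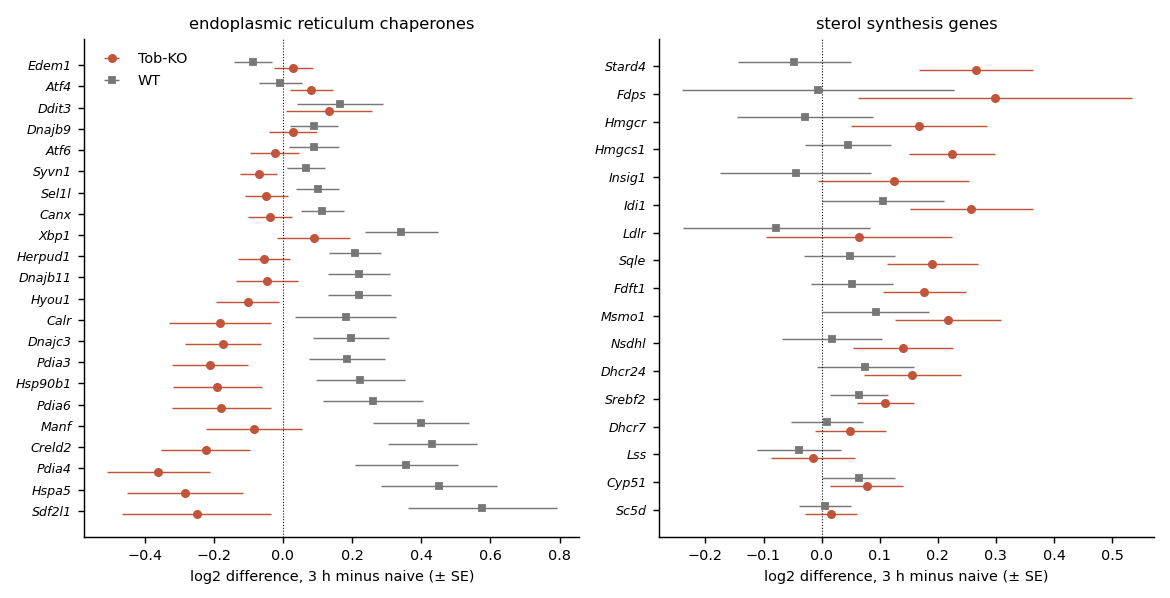
Log2 difference between 3 h and naive libraries (± SE) for each chaperone gene (left) and sterol synthesis gene (right), in libraries labelled Tob-KO (circles) and WT (squares), ordered by the difference between genotypes. Most chaperones have WT points to the right of Tob-KO points, and most sterol genes the reverse, and no single difference between genotypes passed the adjusted threshold.

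The 5 genes with the smallest p between genotypes were Gm37019, Gm42418, Gm8399, Gm14276 and Gm24270. Gm37019 (chr12:102589277-102591410, minus strand, a transcript to be experimentally checked in GENCODE) was at 1.08, 1.48 and 1.41 CPM in naive and 0.464, 0.260 and 0.456 CPM in 3 h Tob-KO libraries. It also passed the test against 1 h, where it fell by 1.86 ± 0.31 (adjusted p = 0.00962). Its difference to naive was -1.74 ± 0.31 (adjusted p = 0.108), and its difference between genotypes was -1.93 ± 0.42 (adjusted p = 0.894). Gm42418 (chr17:39846958-39848788, plus strand, annotated as a lincRNA and overlapping ribosomal RNA sequence) was at 897, 865 and 682 CPM in naive and 1325, 2114 and 2085 CPM in 3 h libraries. Its difference to naive was 1.18 ± 0.28 (adjusted p = 0.327) and the edgeR exact test called it. Gm24270 is among the same 6 ribosomal RNA loci. In WT those loci took 0.113% to 0.317% of counts in naive libraries and 0.115% to 0.134% at 3 h, and overlapped. Gm8399 and Gm14276, both processed pseudogenes, were under 2 CPM in all Tob-KO naive and 3 h libraries. Reads of the pseudogenes may be shared with their parent genes. Strand handling in the counting is not stated either, so these loci are uncertain.

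Mapk3, Dusp1 and Lcn2 were followed because the study compared ERK phosphorylation, MKP-1 (the product of Dusp1) and LCN2 between genotypes. It used protein blots, and quantitative PCR for Lcn2 RNA, so the sequencing values here are another measure and another comparison. Mapk3 was at 103, 106 and 108 CPM in naive libraries and at 119, 122 and 108 CPM at 3 h, a difference of 0.14 ± 0.07 (adjusted p = 0.475). Dusp1, a phosphatase of stress kinases and ERK, was at 12.7, 12.9 and 17.3 CPM in naive libraries, 26.7, 28.6 and 26.9 CPM at 1 h and 15.6, 14.2 and 15.7 CPM at 3 h. The 3 h libraries lay below all those at 1 h, by 0.85 ± 0.23 on the log2 scale, but the adjusted p was 0.105. Against naive the difference was 0.09 ± 0.23 (adjusted p = 0.911). Lcn2, lipocalin 2, was under 0.5 CPM in all naive and 3 h libraries and its difference was -0.15 ± 0.95, so a change was not detectable at this depth.

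Markers of the cell types in the tissue did not pass the threshold at 3 h against naive. Medians against naive were -0.06 for 11 hippocampal neuron markers, 0.06 for 9 astrocyte, -0.07 for 9 oligodendrocyte, 0.05 for 8 microglia and -0.13 for 9 endothelial markers. Choroid plexus markers had 15 of 15 differences below zero and a median of -1.66, with 0 at an unadjusted p under 0.05 and overlapping groups. Lum, a proteoglycan gene of meningeal fibroblasts, fell by 1.04 ± 0.20 from 1 h (adjusted p = 0.0302) and differed from naive by -0.64 ± 0.20 (adjusted p = 0.403). The other fibroblast markers were not called, but the list of 9 had a median log2 difference of -0.58 to 1 h. With the choroid plexus score as covariate Lum was not called against 1 h.

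**Figure D4:**
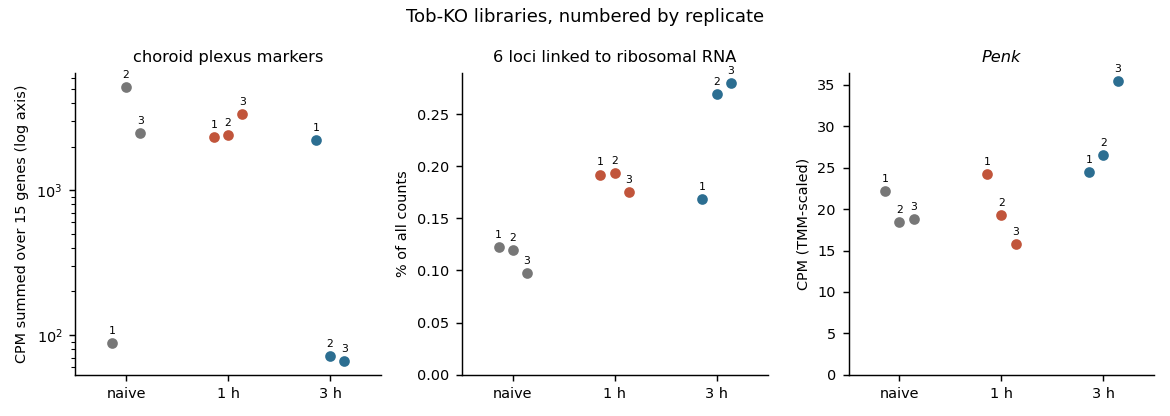
Values per library labelled Tob-KO (points numbered by replicate) for naive, 1 h and 3 h groups: CPM summed over 15 choroid plexus markers on a log axis, the share of counts in 6 loci linked to ribosomal RNA, and Penk in TMM-scaled CPM. Choroid plexus sums overlap between naive and 3 h and differ widely within each, while the ribosomal share and Penk at 3 h lie above every naive library.

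Transcript length and base composition are given as a description. Among protein-coding genes with an unadjusted p under 0.05 against naive, the 974 higher genes had a median transcript length of 2827 bases and 47.7% GC, and the 778 lower genes 3431 bases and 51.7% GC, against 3010 bases and 50.6% GC for all 15148. With the genes in 5 equal bins of transcript length, the median log2 difference went from 0.03 in the shortest to -0.03 in the longest.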

How the data were processed

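The authors purified poly(A) RNA from hippocampus, sequenced directional libraries with paired ends, mapped the reads to GRCm38 with STAR 2.6.1d and counted them per gene with HTSeq 0.9.0, as named in the submitters' processing notes and the methods. They deposited raw counts, whole numbers without normalization, for 47593 rows by 24 libraries, with totals from 28847989 to 41595972. The annotation release, the strand setting and the treatment of reads that map to several genes are not given in the sources used here. Of the rows, 31032 were counted in at least 1 library and 27 had names turned into dates.

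Genes with at least 0.2 CPM in 2 libraries (19500) were fitted in R 4.3.3 with edgeR 4.0.16, its quasi-likelihood test, TMM scaling and 8 group means over the 24 libraries (16 residual degrees of freedom), and p-values were adjusted by the Benjamini-Hochberg method with a threshold of 0.05. Errors are standard errors of log2 differences and intervals are 95%. The methods of the study name edgeR's exact test for genotype comparisons, which was run as an alternative, as was DESeq2 1.42.0. The comparison, gene lists, tests and named genes were chosen with earlier results of these data known, among them that a fit of the 6 libraries alone called no gene. Genes were named where they were list genes at an unadjusted p of at most 0.01, where they were Tob1, Tob2, Lcn2, Dusp1 or Mapk3, or where they were among the 5 smallest p-values of the difference between genotypes. No gene passed against naive, so the parts of the rule for called genes named none. Genes called against 1 h, those with the smallest p, list members past an unadjusted p of 0.05 and examples of the chaperone list were named after their values were seen. Some genes are not reported here. The number of reads limits precision, and PCR reads without molecular identifiers are not independent molecules.

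Coordinates are those of GENCODE M21, in which 18635 of the tested genes (95.6%) matched 1 gene by symbol. Promoters came from RefSeq (GRCm38.p6). The scripts were checked on simulated counts. Replicates of each Tob-KO group differed by more than counting noise, so none of those libraries was counted as a duplicate. WT replicates were not checked in this way.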

Additional observations from a re-analysis of the deposited data

How the results depend on the processing

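The count of 0 genes at 3 h against naive in the libraries labelled Tob-KO held under all alternatives run except 2, where the edgeR exact test on the 6 libraries gave 3 genes (2 lower, among them Gm37019, and Gm42418 higher) and DESeq2 gave 27 (17 higher, 10 lower). Leaving out each replicate gave 0 to 0 genes, with 1179 to 2449 at an unadjusted p under 0.05. The difference between genotypes stayed at 0 genes in every alternative run.

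Against 1 h the 42 calls moved more. A fit of the 6 libraries compared also gave 42, of which 16 were shared. A fit of the 12 Tob-KO libraries gave 11, the exact test 368 and DESeq2 270, which held 42 and 41 of the 42. A filter of 1 CPM in 3 libraries gave 84 and a limit of 2-fold gave 6. Leaving out each replicate gave 5 to 19, the lowest without replicate 1 at 3 h. Nothing in the labels says whether replicate numbers pair the samples. Same-numbered 3 h and naive libraries deviated from their group means with correlations of -0.68, -0.10 and -0.24. Deviations within a group of 3 depend on each other, and choroid plexus markers varied widely within both groups. These correlations therefore cannot decide whether samples were paired. The replicate block gave 26 genes against 1 h, 21 of them shared, and 0 against naive.

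Among 333 values of 21 named genes under alternatives, 327 kept their sign and side of the threshold. The exact test called Gm37019 (-1.74) and Gm42418 (1.17). Signs turned for Dusp1 (-0.0106) and Lcn2 (0.140) with the choroid plexus covariate. Leaving out each replicate gave -0.584 to 0.45 for Lcn2, which was above zero without replicate 3 at 3 h (0.146) or of the naive group. The causes were not tested. Transcripts under 1 CPM, such as Lcn2, are limited by depth.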

Other observations

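Lists that no comparison above describes gave no calls at 3 h against naive in the libraries labelled Tob-KO. Of 26 glucocorticoid-responsive genes, 0 had an unadjusted p under 0.05 and the median log2 difference was -0.04. Of 19 circadian clock and PAR-bZIP genes, the one at that level was Per3, a period gene of the clock, which differed by -0.33 ± 0.13 (SE, adjusted p = 0.42) with all 3 libraries at 3 h below the naive ones. Of 19 inflammatory genes 13 passed the filter on low counts, with a median of -0.15. Il1r1, the interleukin 1 receptor gene, was the one at an unadjusted p under 0.05, at -0.42 ± 0.18 (adjusted p = 0.43). Over all genes 10.6% were at that p in either direction and 5% were lower. All 3 libraries at 3 h lay below all naive ones for 7.38% of genes. The clock and inflammatory lists, with 1 gene each at that p, thus stood near the background.

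Of 12 tested transcripts of the mitochondrial genome, 11 had higher values at 3 h than naive and the median was 0.16. The genes mt-Nd1, a complex I subunit, and mt-Co1, a cytochrome c oxidase subunit, had an unadjusted p under 0.05, with differences of 0.23 ± 0.10 and 0.18 ± 0.08, and 5.62% of all genes were higher at that level. Mitochondrial transcripts took 3.14% to 3.41% of counts in the naive libraries and 3.49% to 3.88% at 3 h.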
